A study of Homo sapiens with 4 samples.

Results

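The zinc finger gene cluster on 19p12 is a run of tandemly duplicated genes next to the centromere of chromosome 19. Its methylated regions were taken as the peaks overlapping chr19:19800001-24300000 (hg19) in 2 peak lists of methylated DNA immunoprecipitation sequencing (MeDIP-seq), a method that recovers DNA fragments with an antibody against 5-methylcytosine (5mC). The knockout list held 295 such peaks of 296521 in all, and the control list 217 of 261657. No peak crossed either border in either list. The rest of the short arm, up to 19800 kb, held 6028 knockout peaks and 5932 control peaks and served for comparison.

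The cells were C42B, a prostate cancer line derived from LNCaP, untreated and harvested 48 h after plating at about 70% confluency. The knockout cells carried a guide RNA against PKCλ/ι (labelled PKCl/i KO, sgPKCl/i), an atypical protein kinase C, and the control cells carried the guide labelled sgC (WT). Peak lists of methylated DNA give no check of the knockout itself. Each genotype had 1 immunoprecipitated library and 1 input library, and the lists are those of the immunoprecipitated libraries, so no difference below has a replicate check and no p-value is given. Intervals are exact 95% intervals. Those of counts, shares and ratios of counts cover counting error only. Those of medians cover the spread over peaks or pairs within the libraries, not over replicates. All treat peaks or pairs as independent, which neighbouring peaks may not be, so the intervals may be too narrow. Whether the knockout cells were 1 clone was not stated in the labels. The title of the series ties loss of this kinase to serine and one-carbon metabolism, the source of the methyl groups placed on DNA, and 5mC was mapped with and without the kinase.

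KRAB zinc finger proteins are the largest family of human transcription factors. Their zinc fingers read DNA sequence, often that of transposable elements, and their KRAB domain recruits the corepressor TRIM28 and with it histone and DNA methylation. ZNF91 and ZNF93, both encoded in 19p12, are known for silencing SVA and LINE-1 retrotransposons. The family grew by tandem duplication, and the 19p12 cluster expanded mainly in primates.

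RefSeq's GRCh38.p14 gene table placed all 35 listed zinc finger genes along this stretch of chromosome 19, in order from ZNF506 to ZNF254. Between these ends 35 of 37 protein-coding genes carried a ZNF symbol, as the name of the region says. The peak lists are in hg19, so this table gave names, order and sequence, and no peak was assigned to a gene.

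Most promoters of these genes shared sequence with each other, and they varied little in their number of CG dinucleotides, the site that 5mC occupies and on which recovery in MeDIP depends. A promoter was the 300 bases from 250 before to 50 after the start in RefSeq, with 1 per gene, and 27 of the 35 genes matched by symbol. These 27 promoters held 8 to 16 CG dinucleotides, with a median of 10 and quartiles of 9 and 13. The 566 promoters of genes before them on the short arm held 0 to 58, with a median of 23 and quartiles of 12 and 34, and 115 of them lay between 8 and 16. Over all 27305 promoters the median was 13. The median 19p12 promoter had 45.3% of its 12-base runs in at least 1 other promoter of the 27, whereas the median of the 566 had 7.96% in another of the 566, a larger pool. ZNF682 was the exception at 0%, and the others had 28.4% (ZNF429) to 65.7% (ZNF486). Shown are 1 of the promoters tied for the fewest CG dinucleotides, 1 at the median and 1 of those tied for the most, 5′ to 3′ on the minus strand for ZNF626 and ZNF675 and the plus strand for ZNF730, with CG in capitals.
ZNF626: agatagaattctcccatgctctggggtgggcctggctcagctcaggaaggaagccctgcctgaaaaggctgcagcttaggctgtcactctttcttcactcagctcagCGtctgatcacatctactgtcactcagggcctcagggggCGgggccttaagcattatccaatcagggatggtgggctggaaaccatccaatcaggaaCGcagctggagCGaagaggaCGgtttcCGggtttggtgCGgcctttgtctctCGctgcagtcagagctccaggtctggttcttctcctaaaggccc
ZNF675: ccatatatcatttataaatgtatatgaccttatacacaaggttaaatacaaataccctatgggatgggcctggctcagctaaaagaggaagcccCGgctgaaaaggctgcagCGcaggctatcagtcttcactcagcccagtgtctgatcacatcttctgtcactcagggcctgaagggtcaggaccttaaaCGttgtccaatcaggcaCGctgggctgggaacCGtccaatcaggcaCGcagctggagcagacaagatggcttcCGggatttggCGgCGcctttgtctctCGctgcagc
ZNF730: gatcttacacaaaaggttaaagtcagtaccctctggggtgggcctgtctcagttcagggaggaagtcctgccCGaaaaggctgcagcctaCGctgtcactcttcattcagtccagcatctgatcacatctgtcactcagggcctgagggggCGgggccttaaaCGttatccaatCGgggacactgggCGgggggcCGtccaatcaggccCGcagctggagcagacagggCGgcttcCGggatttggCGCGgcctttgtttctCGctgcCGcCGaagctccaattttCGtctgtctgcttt
ZNF626 has 8 CG dinucleotides, ZNF675 has 10 and ZNF730 has 16. The run ctgtcactcagg, tied with 1 other run for the most promoters and searched on both strands, was in 18 of the 27 promoters (66.7%), in 7 of the 566 (1.24%) and in 0.136% of all promoters. All 3 promoters printed above hold it. The treatment of reads that align equally well to several copies was not stated, so signal at near-identical sequence is uncertain in both lists.

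Methylated regions were sparser in the cluster than on the rest of the short arm in both genotypes. The knockout list held 65.6 peaks per Mb (58.3 to 73.5) in the cluster and 304 per Mb (297 to 312) on the rest of the short arm. The control list held 48.2 per Mb (42.0 to 55.1) in the cluster and 300 per Mb (292 to 307) on the rest of the arm. The density of the cluster was thus 0.215 times that of the rest of the arm in the knockout (0.191 to 0.242) and 0.161 times in the control (0.140 to 0.184). Peaks covered 3.42% of the cluster in the knockout, against 28.2% of the rest of the arm, and 2.45% in the control, against 25.7%. Density and coverage over all chromosomes were not computed. Whether the cluster or the rest of the arm stands apart from the genome is thus not shown.

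The knockout list was longer than the control list in the cluster. It held 1.36 times the control's number of peaks there (1.14 to 1.63), against 1.02 times on the rest of the arm (0.980 to 1.05) and 1.13 times over all chromosomes. Covered length in the knockout was 1.40 times that in the control within the cluster and 1.09 times on the rest of the arm. The immunoprecipitates differed in depth. The lowest local background in each list, called the floor here and taken as the mean pileup over the genome, was 4.42 fragments in the knockout and 2.92 in the control, a ratio of 1.51. Depth and genotype cannot be told apart in these counts.

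**Figure D1:**
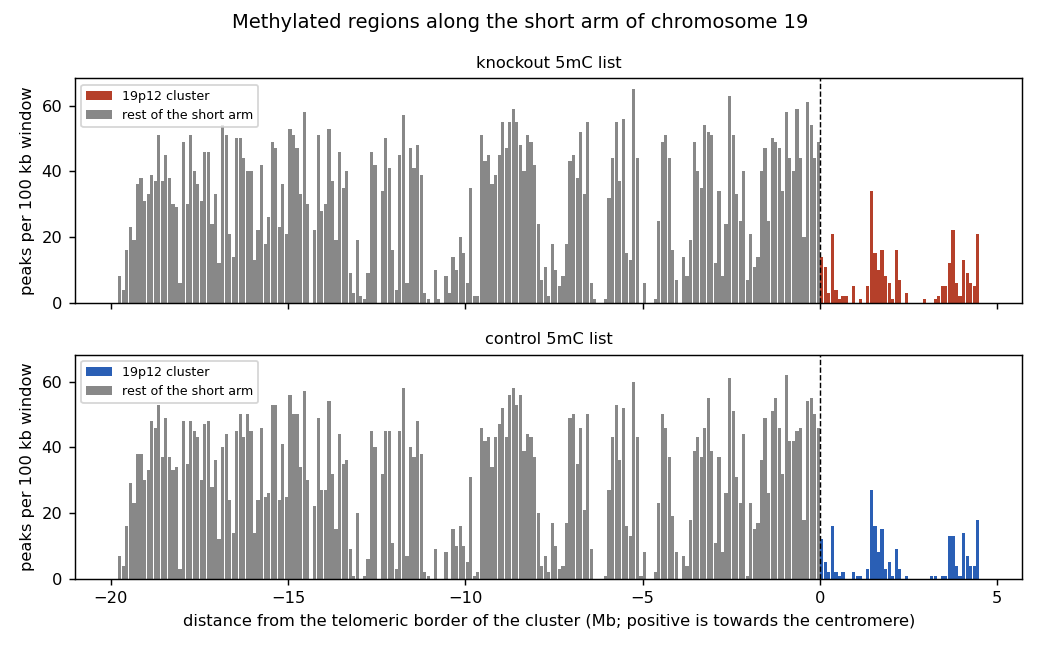
Number of peaks per 100 kb window along the short arm of chromosome 19 in the knockout list (top) and the control list (bottom), by distance in Mb from the telomeric border of the cluster, with the cluster coloured and the rest of the arm grey. Counts in the cluster reach 34 in the knockout and 27 in the control, and the median window of the rest of the arm holds 34.5 peaks in either list.

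Within the cluster the peaks lay in islands separated by long empty stretches. Over 45 windows of 100 kb the median was 5 peaks in the knockout (0 to 34) and 2 in the control (0 to 27). The 10 fullest windows held 184 of the 295 knockout peaks (62.4%) and 153 of the 217 control peaks (70.5%). On the rest of the arm the fullest 44 of 198 windows, a like share of windows, held 38.7% of the knockout peaks and 38.6% of the control peaks. Sparse windows were not confined to the cluster, since 44 of its 45 windows and 66 of the 198 others had at most 20 peaks on average over both lists.

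By the sum of both lists, the fullest window of the cluster was 21200 to 21300 kb, with 34 knockout peaks and 27 control peaks. It was followed by 24200 to 24300 kb with 21 and 18, and by 20100 to 20200 kb with 21 and 16, knockout first. In the knockout alone the window at 23500 to 23600 kb came second, with 22 peaks against 13 in the control. At the other end 8 windows had no peak in either list, among them 20600 to 20700, 21000 to 21100 and 22100 to 22200 kb. Windows full in the knockout were also full in the control, with a Pearson correlation of 0.958 and a Spearman correlation of 0.933 over the 45 windows, which share their sequence and its mappability. The knockout count was the higher in 27 windows, equal in 13 and the lower in 5. On the rest of the arm it was higher in 94, equal in 35 and lower in 69 of 198.

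In the cluster the longest interval free of peaks from both lists ran from 22291446 to 22753846, or 462 kb, which is longer than any on the rest of the short arm, where the longest was 248 kb. The next 2 in the cluster, of 218 kb (22754172 to 22972472) and 189 kb (22049621 to 22238561), lay on either side of it, so that the middle of the cluster was nearly empty. Stretches of at least 50 kb without a peak made up 53.6% of the cluster and 17.5% of the rest of the arm. With no genome of this build, sequence without CG dinucleotides, sequence that reads cannot be placed on and unmethylated sequence cannot be told apart here. The longest stretch of the whole chromosome without a peak, 24628824 to 27731809, began a short way beyond the centromeric border and is not part of the cluster. Whether reads can be placed in it at all was not checked.

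**Figure D2:**
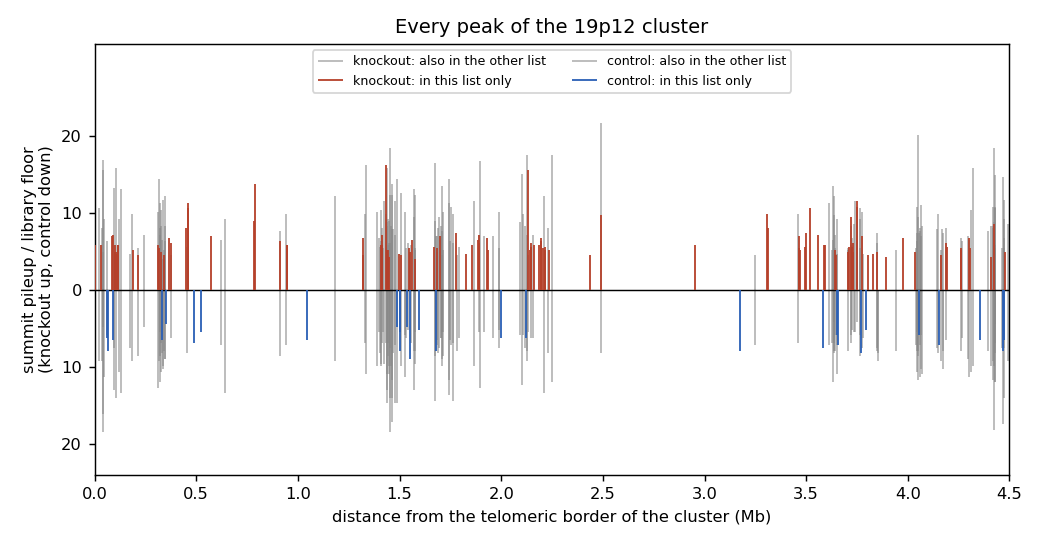
Every peak of the cluster by distance in Mb from its telomeric border, with line height the summit pileup divided by the library's floor, knockout upwards and control downwards. Grey lines are peaks that overlap a peak of the other list, coloured lines are peaks of 1 list only, and the islands and the empty middle stand in both lists.

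Peaks of the cluster had a lower summit pileup and were shorter than those on the rest of the arm. Their median summit pileup was 7.01 times the floor in the knockout (6.78 to 7.46), against 10.2 on the rest of the arm (9.95 to 10.4), and 7.87 times in the control (7.53 to 8.21), against 9.92 (9.92 to 10.3). Over all chromosomes the medians were 8.14 in the knockout and 8.55 in the control. Strong peaks, with the authors' −log10 q of at least 10, made up 202 of 295 knockout peaks in the cluster (68.5%, 62.8 to 73.7) and 131 of 217 control peaks (60.4%, 53.5 to 66.9). On the rest of the arm they made up 80.5% of knockout peaks and 66.5% of control peaks, and over all chromosomes 74.5% and 57.0%. The interval of the cluster in the knockout lay below both of these shares, and in the control it held both. The authors' fold enrichment did not share this order in both lists. Its cluster median was 5.35 in the knockout (4.98 to 5.72), against 5.69 on the rest of the arm and 5.35 over all chromosomes. In the control it was 5.86 (5.61 to 6.12), against 5.77 and 5.48. The knockout interval held both other values, and the control interval held that of the rest of the arm and lay above that of all chromosomes.

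The local background of the peaks was low as well. It stood at the floor for 53.2% of cluster peaks in the knockout (47.3 to 59.0) and 60.8% in the control (54.0 to 67.4), against 5.92% and 10.1% on the rest of the arm and 28.7% and 31.8% over all chromosomes. A background over 2 times the floor was found at 17 knockout peaks of the cluster (5.76%) and at 4 control peaks (1.84%), against 25.2% and 15.4% on the rest of the arm and 12.8% and 8.62% over all chromosomes. The caller reads local background from an input library where one is supplied, and whether the inputs were supplied was not stated. The part of the background in the lower number of peaks was not tested.

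Median peak length was 433 bp in the knockout (412 to 453) and 432 bp in the control (406 to 461), against 635 bp (622 to 649) and 620.5 bp (608 to 632) on the rest of the arm and 464 bp and 458 bp over all chromosomes. Peaks of at least 1000 bp numbered 19 in the knockout (6.44%, 3.92 to 9.88) and 10 in the control (4.61%, 2.23 to 8.31), against 27.9% and 25.8% on the rest of the arm and 10.1% and 8.78% over all chromosomes. In length the cluster was thus closer to all chromosomes than to the rest of its arm. At least 2000 bp were reached by 1 peak of the cluster, a knockout one, against 491 knockout and 363 control peaks on the rest of the arm. That peak, chr19:23649553-23652697, was 3145 bp long and had a pileup of 33 in the knockout, and overlapped 3 control peaks, among them 1264 bp at chr19:23649267-23650530 with a pileup of 23. The longest control peak, chr19:21288511-21290295, was 1785 bp long with a pileup of 43, and its knockout counterpart, chr19:21288568-21290325, was 1758 bp long with a pileup of 64. The third longest knockout peak, chr19:19917985-19919656 (1672 bp, pileup 41), likewise had the second longest control peak as its counterpart, chr19:19918097-19919706 (1610 bp, pileup 31). Of the other long knockout peaks, chr19:22047961-22049620 (1660 bp, pileup 78) was shared and chr19:23109466-23111025 (1560 bp, pileup 36) had no control peak, the nearest being 61452 bp away. The other long control peaks, chr19:24270733-24272256 (1524 bp, pileup 41) and chr19:21543179-21544444 (1266 bp, pileup 34), were shared. Of these 10 peaks, 5 from each list, 9 overlapped a peak of the other list, and several were the same region named from both lists. Such overlap was common for long peaks over all chromosomes. There 2.91% of strong knockout peaks (−log10 q of at least 10) of 600 bp or more overlapped no control peak. Of such control peaks, 0.445% overlapped no knockout peak. In the cluster 13 of 63 such knockout peaks overlapped no control peak (20.6%, 11.5 to 32.7), against 1.67% on the rest of the arm. Of such control peaks in the cluster, 1 of 45 overlapped no knockout peak (2.22%, 0.0562 to 11.8), against 0.185% on the rest of the arm.

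**Figure D3:**
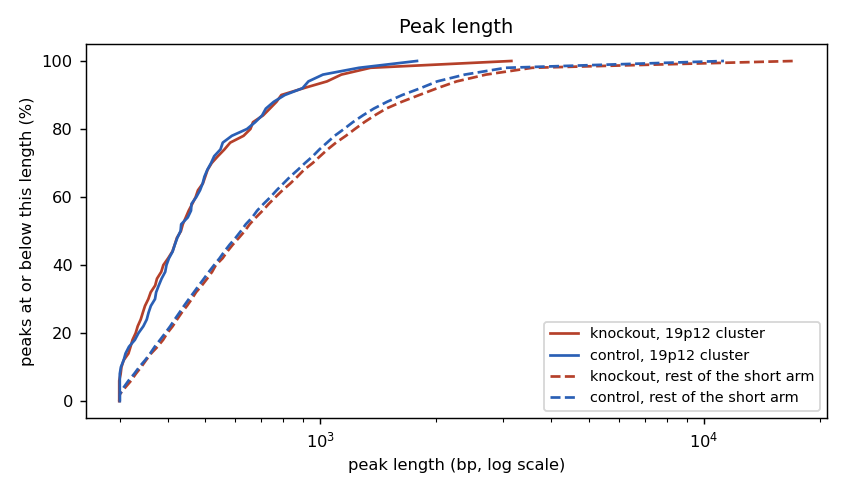
Share of peaks at or below each length (bp, log scale) in the knockout and the control list, solid for the cluster and dashed for the rest of the short arm. The knockout and control curves lie close together within each region, and the cluster curves lie left of the others, with medians of 433 and 432 bp against 635 and 620.5 bp.

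Some regions of the cluster were among those with the highest pileup in both lists. The region chr19:21252392-21253373 had a pileup of 82 in the knockout (65.2 to 102), 18.5 times the floor, and its control counterpart at chr19:21252395-21253324 had 54 (40.6 to 70.5), also 18.5 times. Its fold enrichment was 15.3 in the knockout and 13.9 in the control, with the background at or near the floor in both. At chr19:24223960-24224845 the knockout pileup was 82, again 18.5 times the floor, and the control pileup at chr19:24223979-24224983 was 53, or 18.1 times. These 2 regions stood at nearly the same level in both genotypes relative to each library's mean.

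The region with the highest pileup in the knockout had a far lower listed pileup in the control, together with a lower background. The highest knockout pileup, 96 (77.8 to 117) or 21.7 times the floor, was at chr19:22289980-22291445, at the edge of the empty middle, where the control listed 24, or 8.21 times, at chr19:22290905-22291255. The knockout background there was 3.41 times the floor, against 1.22 times in the control, and the summits lay 901 bp apart. The log2 ratio of background, 1.48, was thus above that of pileup, 1.40, and the knockout fold enrichment was 6.04. The knockout summit lay outside the control peak, so the control level at that summit is not known. The second highest knockout peak, chr19:23851047-23851940, had a pileup of 89, or 20.1 times the floor, with a background of 2.77 times the floor. The other leading control regions had knockout counterparts within 1.5-fold. At chr19:19842391-19842983 the knockout pileup was 75 (17.0 times the floor), against 54 (18.5 times) in the control at chr19:19842463-19842962. At chr19:24268389-24269708 it was 65 (14.7 times), against 51 (17.4 times) in the control at chr19:24268667-24269706. At chr19:21261969-21262826 it was 61 (13.8 times), against 50 (17.1 times) in the control at chr19:21261995-21262797.

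Of the knockout peaks 189 of 295 overlapped a control peak by at least 1 bp (64.1%, 58.3 to 69.5), and of the control peaks 189 of 217 overlapped a knockout peak (87.1%, 81.9 to 91.3). On the rest of the arm the shares were 86.0% of knockout peaks (85.1 to 86.8) and 92.4% of control peaks (91.7 to 93.1), and over all chromosomes 76.1% and 87.9%. The control share of the cluster was thus near that of all chromosomes, and the knockout share lay below both. Peaks of 1 list only were weak. Their median pileup was 26 in the knockout, against 37 for its shared peaks, and 19 in the control, against 24.

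In the lists as deposited, strong peaks found in the knockout only took a larger share in the cluster than elsewhere. There were 53 among 202 strong knockout peaks (26.2%, 20.31 to 32.87), against a background of 14.9% over all chromosomes and 347 of 4852 (7.15%, 6.44 to 7.91) on the rest of the arm. Control-only strong peaks numbered 5 of 131 (3.82%, 1.25 to 8.68), against a background of 3.24% and 56 of 3947 (1.42%, 1.07 to 1.84) on the rest of the arm. The control-only share in the cluster was thus not separated by its interval from either of the others. Knockout-only strong peaks lay in 26 of the 45 windows and control-only ones in 5.

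The depth and weakness of peaks moved with the knockout-only share, so it was also taken at matched strength. With knockout pileup and background divided by the ratio of floors before significance was recomputed, 13 of 125 strong knockout peaks of the cluster lacked a control peak (10.4%, 5.65 to 17.1), against a background of 6.10% and 95 of 3703 (2.57%, 2.08 to 3.13) on the rest of the arm. After this scaling the interval of the cluster held the value of all chromosomes and not that of the rest of the arm. At 5 to 7 times the floor, 29 of 49 strong knockout peaks of the cluster were knockout-only (59.2%, 44.2 to 73.0), against a background of 41.8% and 31.8% on the rest of the arm. At 7 to 9 times the shares were close, with 12 of 59 (20.34%, 11.0 to 32.8) in the cluster, a background of 20.2% and 16.7% on the rest of the arm. At 9 to 12 times there were 9 of 57 (15.8%, 7.48 to 27.9), against 6.09% over all chromosomes and 4.70% on the rest of the arm, and at 12 times or above 3 of 37 (8.11%, 1.70 to 21.9), against 1.81% and 1.10%. The cluster's interval lay above both other values at 5 to 7 and at 9 to 12 times, and held both at 7 to 9 times. At 12 times or above it held the value of all chromosomes only.

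**Figure D4:**
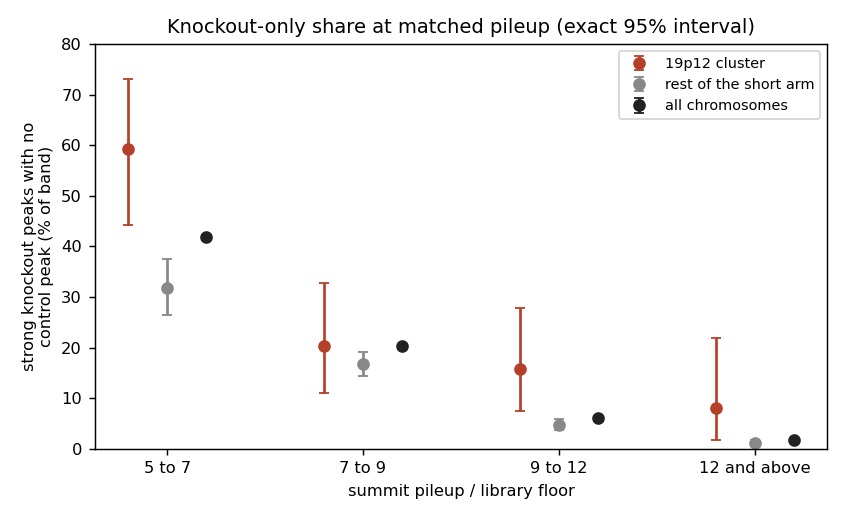
Share of strong knockout peaks with no overlapping control peak, in bands of summit pileup over the library's floor, for the cluster, the rest of the short arm and all chromosomes, with exact 95% intervals. The cluster lies highest in the lowest band, at 59.2%, its point is close to the others at 7 to 9, and its intervals are wide in the upper 2 bands.

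Density moved with this share too. In windows of at most 20 peaks on average over both lists, 49 of 174 strong knockout peaks of the cluster were knockout-only (28.2%, 21.6 to 35.5), against 51 of 365 (14.0%, 10.6 to 18.0) in such windows on the rest of the arm and a background of 20.7%. Among strong peaks with the background at the floor, the share was 28 of 107 (26.2%, 18.1 to 35.6) in the cluster, 37 of 273 (13.6%, 9.73 to 18.2) on the rest of the arm and 21.1% over all chromosomes, which lies inside the cluster's interval. Among those shorter than 600 bp it was 40 of 139 (28.8%, 21.4 to 37.1) in the cluster, 296 of 1800 (16.4%, 14.8 to 18.2) on the rest of the arm and 21.9% over all chromosomes. The cluster's share was above that of the rest of the arm in each of these 3 sets. Its interval held the value of all chromosomes in the last 2 sets and lay above it in the sparse windows. Among the strong peaks outside the last 2 sets, the cluster's interval lay above both other values. With the background above the floor the share was 25 of 95 (26.3%, 17.8 to 36.4), against 6.77% on the rest of the arm and 12.3% over all chromosomes. At 600 bp or more it was 13 of 63 (20.6%, 11.5 to 32.7), against 1.67% and 2.91%. These sets and the bands were chosen after the shares had been seen.

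The control list gave small numbers at matched strength. Control-only were 5 of 57 strong control peaks of the cluster at 7 to 9 times the floor (8.77%, 2.91 to 19.3), against a background of 7.77% and 5.45% on the rest of the arm. At 9 to 12 times they were 0 of 49, which allows up to 7.25%, against a background of 2.06%, and at 12 times or above 0 of 25, which allows up to 13.7%, against a background of 0.376%. In windows of at most 20 peaks they were 5 of 111 (interval 1.48% to 10.2%), against a background of 5.20%. With the background at the floor they were 5 of 87 (5.75%), against 4.12% over all chromosomes, and under 600 bp they were 4 of 86 (4.65%), against 5.25%. None of these shares was separated by its interval from that of all chromosomes.

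The 53 knockout-only strong peaks had pileups of 25 to 72 with a median of 30, or 6.78 times the floor. Divided by the ratio of floors, that median is 19.82 fragments at the control's depth. The lowest control pileup listed at the floor was 10, which is no limit for regions with a higher background. The peaks were picked for being listed in the knockout only, and the part of depth in them was not tested. The nearest control peak lay at a median distance of 4035 bp, within 1000 bp for 14 of them and beyond 10000 bp for 12. The background was at the floor for 28 and over 2 times the floor for 5.

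By −log10 q the strongest knockout-only region was chr19:21231345-21231978, with a pileup of 72 (56.3 to 90.7), 16.3 times the floor, a fold of 13.5 and the background at the floor. At an equal level the control would have had 47.6 fragments there, and its nearest peak was 436 bp away. The next, chr19:21933278-21933851, had a pileup of 69 (53.7 to 87.3), or 15.6 times the floor, and a control peak 1286 bp away. Then came chr19:23548518-23549273 with 48 (10.9 times), chr19:20586008-20587342 with 61 (13.8 times) and chr19:23551906-23552456 with 51 (11.5 times). The region at 20586008 stood alone, with the nearest control peak 126202 bp away and a background of 2.13 times the floor.

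The strongest control-only regions were weaker. The first, chr19:21353501-21353915, had a pileup of 26 (17.0 to 38.1), 8.90 times the floor, with the nearest knockout peak 2581 bp away. The other 4 were chr19:23567666-23568097 with a pileup of 24, chr19:24267423-24268083 with 23, chr19:23380309-23380711 with 22 and chr19:23951202-23951518 with 21. All 5 had the background at the floor, and none reached 9 times the floor.

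Where a region was listed in both genotypes, its level in the knockout was in the median close to that in the control. A pair was a knockout peak and a control peak that overlapped each other and no further peak, and the cluster held 175 pairs. Their median log2 ratio of summit pileup, knockout over control and scaled by the floors, was -0.02 (-0.09 to 0.04), with quartiles of -0.29 and 0.29. On the rest of the arm the median over 4166 pairs was 0.07 (0.06 to 0.09), with quartiles of -0.13 and 0.28, and over all pairs it was 0.04. The interval of the cluster did not overlap that of the rest of the arm and held the value of all pairs. The ratio was above 0 in 84 of 175 pairs of the cluster (48.0%) and in 59.8% on the rest of the arm. The mean log2 ratio of local background was 0.09 in the cluster and 0.18 on the rest of the arm, so it was lower along with the pileup ratio, and its part was not tested. Only regions called in both lists form pairs, so 106 knockout-only peaks of 295 and 28 control-only peaks of 217 are left out. The part of this selection in the ratios was not tested either.

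The ratios were more scattered in the cluster. Their SD was 0.43, against 0.34 on the rest of the arm, and counting error alone gives 0.38 and 0.35 at these pileups. At least 1.5-fold higher in the knockout were 16 of 175 pairs (9.14%, 5.32 to 14.4), against a background of 5.14% and 5.78% on the rest of the arm. At least 1.5-fold lower were 13 pairs (7.43%, 4.01 to 12.4), against a background of 3.60% and 2.71% on the rest of the arm. The pairs of the cluster were weaker, with median pileups of 37 in the knockout and 23 in the control, against 47 and 29 on the rest of the arm. Across pairs the floor-scaled pileups of the genotypes had a Spearman correlation of 0.611 in the cluster and 0.821 on the rest of the arm, over pairs that share sequence and libraries.

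**Figure D5:**
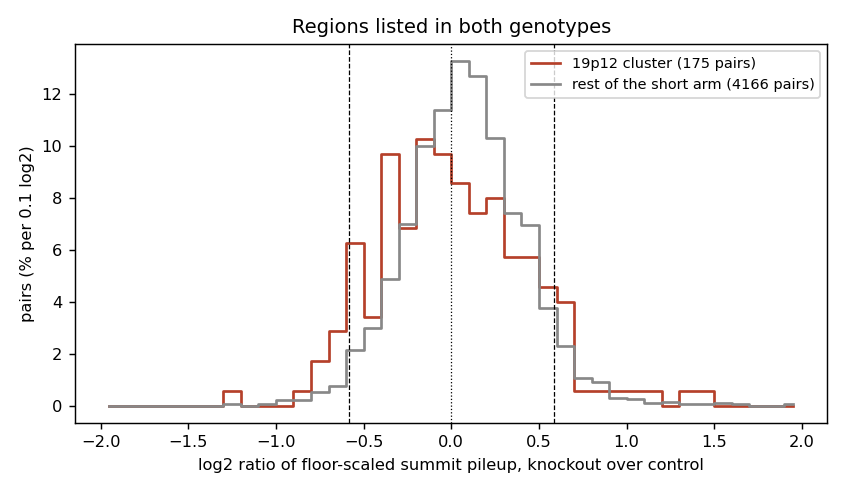
Distribution of the log2 ratio of floor-scaled summit pileup, knockout over control, for pairs of the cluster and of the rest of the short arm, in percent of pairs per 0.1 log2, with dashed lines at 1.5-fold either way. The cluster distribution is broader, with quartiles of -0.29 and 0.29 against -0.13 and 0.28.

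The pair with the highest ratio was chr19:22289980-22291445, described above, at a log2 ratio of 1.40, where the background ratio was raised as well, at 1.48. The next was chr19:23550631-23551108, with a pileup of 45 in the knockout against 12 in the control and a log2 ratio of 1.31. The pair at chr19:21928125-21928715 had 78 against 23 and a log2 ratio of 1.16, and the pair at chr19:23541935-23542435 had 51 against 16 and 1.07. In these 3 the background was at most 1.06 times the floor in both lists. The fifth, chr19:21789757-21790317, had 45 against 15 and 0.99.

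The lowest ratio was at chr19:20138545-20138843, with a pileup of 18 in the knockout against 29 in the control and a log2 ratio of -1.29. At chr19:23961728-23962027 the pileups were 23 and 27, at chr19:21584534-21584997 they were 20 and 23, at chr19:24098410-24098770 they were 29 and 33, and at chr19:21250014-21250752 they were 27 and 29, knockout first. Their log2 ratios were -0.83, -0.80, -0.78 and -0.70, in that order.

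Several of the regions higher in the knockout were neighbours. From 23535 to 23575 kb the knockout list held 7 peaks and the control list 5, in a stretch chosen after the values were seen. At chr19:23541935-23542435, 23548518-23549273, 23550631-23551108, 23551906-23552456 and 23564193-23564693 the knockout pileups were 51, 48, 45, 51 and 47. The control listed 16 at the first, 12 at the third and 17 at the last of these, and no peak at the other two. Relative to the floors these were 10.2 to 11.5 in the knockout and 4.11 to 5.82 in the control. The other knockout peaks of the stretch, chr19:23566515-23566813 with 24 (5.43 times the floor) and chr19:23566947-23567353 with 41 (9.27 times), overlapped 1 control peak of 25 (8.55 times) and showed no such difference. At the end of the stretch the order turned, with a control-only peak of 24 at chr19:23567666-23568097.

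A shorter stretch at 21925 to 21940 kb, also chosen after the values were seen, held the pair with 78 in the knockout against 23 in the control and the knockout-only peak of 69. Between them lay a pair without that difference, chr19:21931668-21931966, with 20 in the knockout, or 4.52 times the floor, and 16 in the control, or 5.47 times.

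Along the cluster the pairs showed no common direction. In segments of 500 kb with at least 10 pairs the median log2 ratio ran from -0.09 over 30 pairs at 19800 to 20300 kb to 0.23 over 13 pairs at 21800 to 22300 kb. The segment at 23300 to 23800 kb had a median of 0.10 over 20 pairs, with 6 at least 1.5-fold higher and 2 at least 1.5-fold lower in the knockout. At 21800 to 22300 kb the mean log2 ratio of background was raised as well, at 0.37, and its part was not tested. Knockout-only strong peaks are given for every segment of 500 kb in order, from 19800 kb towards the centromere. They numbered 13 of 36, 5 of 9, 5 of 33, 8 of 38, 5 of 14, 1 of 1, 3 of 4, 9 of 27 and 4 of 40. The background over all chromosomes was 14.9%. These counts showed no steady course along the cluster, and several segments held few strong peaks.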

How the data were processed

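MeDIP-seq peak lists of 1 knockout and 1 control 5mC library of C42B cells were analysed. The tools were FastQC, BWA and MACS2 and the build hg19, per the submitters' processing notes, without versions or parameters. The deposited pileup is an unscaled signal, the whole number of fragments at the summit. The deposited fold enrichment is the ratio of pileup plus 1 to local background plus 1, and the authors' −log10 p and −log10 q come from the caller. Each list carries WT or KO and 5mC in its name, which tied it to its sample.

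Local background was recomputed as pileup plus 1 over fold, minus 1, and with it the Poisson tail gave the listed −log10 p within 0.000573. The floor is its lowest value. For depth scaling, knockout pileup and background were divided by the ratio of floors, 1.51, and −log10 q was read from the control list's relation of p to q. Library totals were not listed. Intervals at the 95% level are exact Poisson for counts, Clopper-Pearson for shares, conditional binomial for ratios of counts and order-statistic for medians. Overlap, pairing and scaling were tested on simulated lists. Peaks were named by rank (highest 5 by pileup, length, list-only −log10 q and ratio), windows and empty stretches by the highest and lowest 3. The region, members and lists were chosen with earlier results of these data known. Python 3.11.15, numpy 2.4.6, pandas 2.3.3 and scipy 1.17.1 were used. Promoters are from RefSeq, GRCh38.p14.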

Additional observations from a re-analysis of the deposited data

How the results depend on the processing

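Of 59 alternatives over 15 results, 39 stayed within the 95% interval (covered length: 1.5 times) of the reported value, and 20 left it; the cause was not tested. The density of the cluster over the rest of the arm was 0.183 in the knockout with strong peaks alone, and with inner borders (20300 to 23800 kb) 0.176 in the knockout and 0.127 in the control. Counting windows with a peak only, an alternative chosen after seeing the data, gave 0.263 in the knockout and 0.199 in the control. Strong shares shift by construction with the threshold, to 97.3% and 93.1% at a −log10 q of 5 and 31.9% and 16.1% at 20, knockout first, and the knockout share was 42.4% after depth scaling. The knockout-only share was 35.5% at a −log10 q of 5, 8.51% at 20, 19.3% with no control peak within 1000 bp and 10.4% after depth scaling, against 13.1%, 1.34%, 2.51% and 2.57% on the rest of the arm. The control-only share was 10.9% at 5, 0 of 35 at 20, a share of 0%, 12.2% with 50% reciprocal overlap and 11.5% at equal numbers of peaks, against 6.32%, 0%, 17.5% and 2.61% on the rest of the arm, so that with reciprocal overlap the cluster was below the rest of the arm, the opposite of the reported order. Median length of strong peaks was 483.5 bp in the knockout and 499 bp in the control. The median log2 ratio of pairs, whose interval held 0, ran from -0.06 to 0.01 and changed sign with inner borders, to 0.01. No paired analysis was possible because there was 1 library per group. At the floor the lowest pileup listed was 14 in the knockout and 10 in the control, which bounds the weakest region that either list can show.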
